A study of Mus musculus with 292 samples.

Results

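The brains of F2 mice whose Rps3 probe read low were compared with those of mice whose Rps3 probe read high. The mice were chosen by their measured log10 ratio at the Rps3 probe with the largest spread over 292 mice: a mouse was low under -0.2 and high over 0.115 on this ratio of its RNA to a common pool. Of the 292 mice, 72 were low, 70 were high and 150 lay between, so 142 entered the comparison and the middle mice served to read the dose. All were F2 mice of both sexes from an intercross of C57BL/6J with C3H/HeJ in which either strain could come first, and the labels name no engineered allele. Each ate chow with 4% fat to the age of 8 weeks, then for 12 weeks a high-fat "Western" diet holding 42% fat with 0.15% cholesterol, and was killed at the age of 20 weeks after a fast of 12 hours. Each brain was 1 array with 2 colours, the mouse in Cy3 and a pool of equal RNA from all mice in Cy5. There was no untreated or parental group. The sex and genotype of each mouse were not used here, though an alternative fit took the level of the Y-linked gene Eif2s3y as covariate.

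Rps3 encodes a protein of the small ribosomal subunit that sits at the entry of the messenger RNA channel and is also known outside the ribosome, in base excision repair and NF-kappaB signalling. In an F2 intercross each mouse inherits recombined chromosomes, so that genes close together on a chromosome tend to come from the same grandparent strain. For a locus with 2 alleles the textbook shares are 25%, 50% and 25% for the 3 genotypes. Myo7a, a myosin motor of hair cell stereocilia, and Me3, the mitochondrial malic enzyme that makes NADPH, are genes of the same chromosome, chromosome 7. The groups are called low and high after the probe, since the log ratios cannot tell fewer cells of a type from less RNA per cell and name no allele.

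The 250 bases before the start of Rps3 and of the 3 other chromosome 7 genes with the largest differences by gene name are shown because the results turn on these genes. They come from RefSeq on GRCm38.p6, are written 5′ to 3′ on the strand of the gene, and are reference letters, not those of these mice. Capitals mark matches to 5 motifs searched on both strands (the ETS core CTTCCG, the interferon-stimulated response element ISRE by its consensus, the GC box GGGCGG, the box CCAAT and the box TATAAA) and, for Rps3, a repeated run.
Rps3, chr7:99483710-99483959, minus strand: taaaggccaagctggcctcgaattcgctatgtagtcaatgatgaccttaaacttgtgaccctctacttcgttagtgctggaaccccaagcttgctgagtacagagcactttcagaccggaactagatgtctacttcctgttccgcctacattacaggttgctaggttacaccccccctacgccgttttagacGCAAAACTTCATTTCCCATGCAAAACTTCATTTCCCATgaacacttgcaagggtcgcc
Myo7a, chr7:98119494-98119743, minus strand: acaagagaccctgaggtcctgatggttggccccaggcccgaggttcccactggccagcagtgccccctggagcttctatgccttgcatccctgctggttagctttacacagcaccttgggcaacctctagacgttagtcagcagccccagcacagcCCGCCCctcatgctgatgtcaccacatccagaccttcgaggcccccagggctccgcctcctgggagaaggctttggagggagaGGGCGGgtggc
Me3, chr7:89632568-89632817, plus strand: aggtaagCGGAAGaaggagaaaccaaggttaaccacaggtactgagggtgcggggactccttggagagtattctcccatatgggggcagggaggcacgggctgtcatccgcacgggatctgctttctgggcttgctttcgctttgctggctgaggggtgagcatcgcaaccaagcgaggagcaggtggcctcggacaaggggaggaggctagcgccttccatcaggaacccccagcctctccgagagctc
Trim30d, chr7:104507850-104508099, minus strand: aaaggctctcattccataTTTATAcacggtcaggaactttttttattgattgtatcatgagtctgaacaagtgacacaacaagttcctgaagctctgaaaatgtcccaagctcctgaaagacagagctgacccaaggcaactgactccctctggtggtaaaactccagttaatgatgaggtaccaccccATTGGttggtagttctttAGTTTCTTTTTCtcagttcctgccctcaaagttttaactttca
The Rps3 window held none of the 5 motifs but a run of 19 bases, GCAAAACTTCATTTCCCAT, in 2 adjacent copies. A repeat of at least 19 bases was present in 1.23% of 32851 windows of the same length, and it was looked for after this window had been read. The Me3 window held 1 ETS match (13.6% of windows hold one) and the Myo7a window, the first of 2 starts in the table, held 2 GC boxes (32.7%). The Trim30d window held 1 ISRE match, a motif found in 0.222% of windows, with 1 match to CCAAT (33.8%) and 1 to TATAAA (12.4%). A match is a description of these letters only.

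The Rps3 probe fell into 3 bands. In the low mice it ran from -0.499 through a median of -0.397 to -0.283, in the middle mice from -0.197 through 0.0120 to 0.104, and in the high mice from 0.128 through 0.215 to 0.303. The means were -0.404 ± 0.0454 (SD, n = 72), 0.00981 ± 0.0416 (SD, n = 150) and 0.221 ± 0.0346 (SD, n = 70), so the high mean was 4.22-fold the low mean. The labels do not state the base of the log, and this and every other fold and linear ratio here takes it as 10 and would change with another base. These values chose the groups and carry no test. On the linear scale the mean ratios to the pool were 0.397, 1.03 and 1.67. The shares of mice were 24.7%, 51.4% and 24.0%. Nearest the thresholds, the mice at -0.283 and -0.197 lay on either side of the lower one and those at 0.104 and 0.128 on either side of the upper one. Within 0.02 of the lower threshold there was 1 mouse, and within 0.02 of the upper one there were 6.

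The labels part the mice into 3 sets, whose meaning they do not give: set A (74 mice) and set B (77 mice) have numbers up to 212 and differ in the form of their description, and set C (141 mice) has numbers from 213. Low, middle and high mice numbered 18, 39 and 17 in set A, 21, 35 and 21 in set B, and 33, 76 and 32 in set C. The 3 bands lay at nearly the same levels in each set, with low means of -0.411, -0.392 and -0.408 and high means of 0.203, 0.213 and 0.237.

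**Figure D1:**
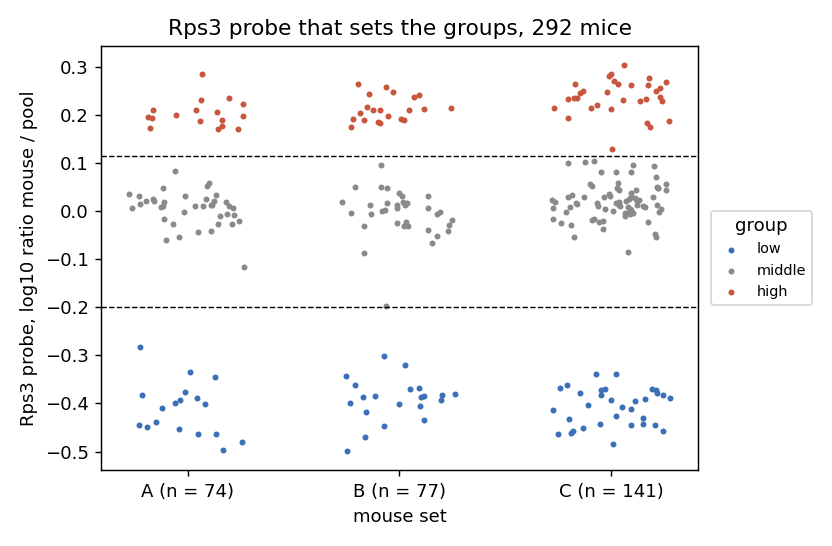
Log10 ratio of the Rps3 probe that sets the groups (vertical axis) in each of 292 mice (points), by mouse set A, B and C. The dashed lines are the thresholds at -0.2 and 0.115, and the low, middle and high bands are apart in each set, from -0.499 to -0.283 in the low mice and from 0.128 to 0.303 in the high mice.

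The array carried 2 probes of Rps3, and they differed between the groups by very unlike amounts. The other probe ran from -0.0923 through a median of -0.00338 to 0.110 in the low mice and from -0.0616 through 0.0176 to 0.116 in the high mice, so its groups overlapped over nearly their whole range. Its difference, high minus low, was 0.0252 ± 0.00726 (SE), or 1.06-fold, with an adjusted p of 0.0719, and it was not called. Inside each group, though, the probes moved together over mice: Pearson's r between them was 0.81 in the low, 0.62 in the middle and 0.81 in the high mice, as a description over mice that share arrays and pool. The step of 4.22-fold therefore belonged to 1 of the 2 probes, while the variation inside a step was shared by both. What sets the probes apart was not tested.

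**Figure D2:**
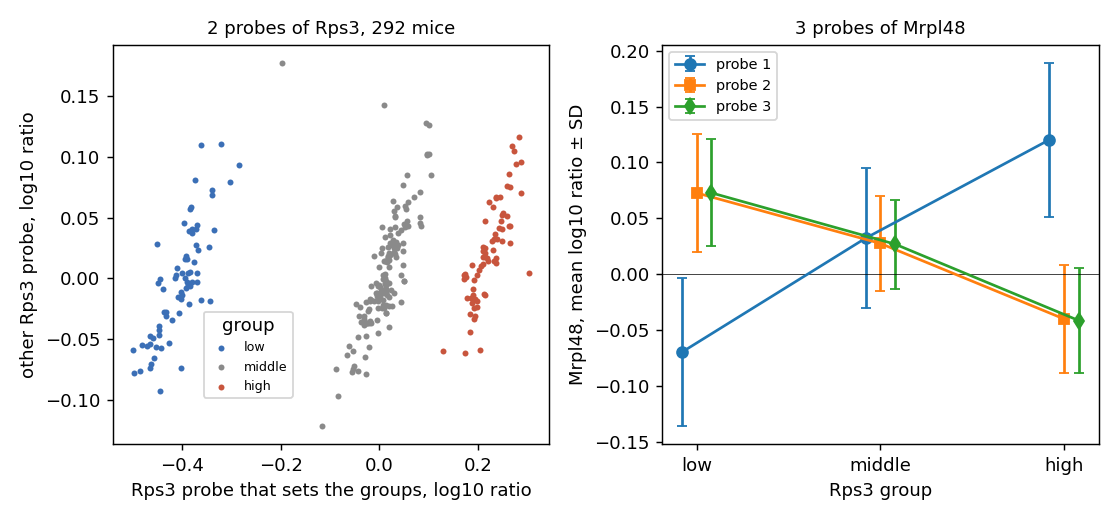
Left, the other Rps3 probe (vertical axis, log10 ratio) against the Rps3 probe that sets the groups (horizontal axis, log10 ratio) in 292 mice: 3 parallel bands, with r of 0.81, 0.62 and 0.81 inside the low, middle and high group. Right, mean ± SD of the 3 Mrpl48 probes by Rps3 group, where probe 1 was higher in the high group (0.190) and probes 2 and 3 were lower (-0.113 and -0.114).

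Besides the Rps3 probe, 23548 probes were tested with limma, with the mouse-number block (up to 212, from 213) as covariate and Benjamini-Hochberg adjustment over all of them. A probe was called at an adjusted p under 0.05, and 213 were called (0.905%), 100 higher (0.425%) and 113 lower (0.48%) in the high group. Of the 213, 91 had no gene name here and so enter no count by gene or chromosome, and 11 were not the probe chosen for their gene. Taking 1 probe per gene, 111 of 10835 genes with a chromosome were called (1.02%), 46 higher (0.425%) and 65 lower (0.6%). Chromosome 7 held 82 of them, out of 904 tested there (9.07%). Of these 82, 37 were higher (4.09%) and 45 were lower (4.98%) in the high mice. The other chromosomes together held 29 of 9931 (0.292%), 9 higher (0.0906%) and 20 lower (0.201%). Chromosome 7 thus held 73.9% of the called genes and 8.34% of the tested ones. Both directions were thus present in number on the chromosome.

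**Figure D3:**
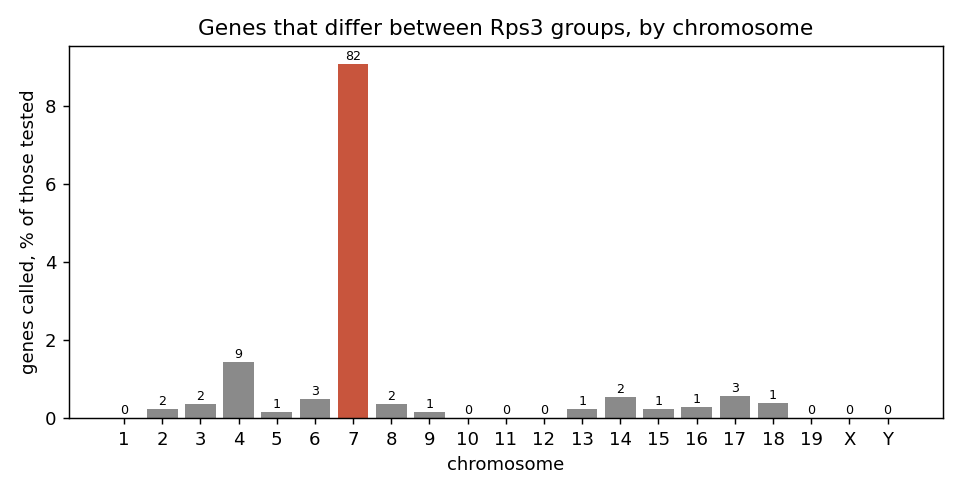
Share of tested genes called between the low and high mice (vertical axis, percent) for each chromosome (horizontal axis), with the number called above each bar. Chromosome 7 stands at 9.07% and the next, chromosome 4, at 1.45%.

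Differences on chromosome 7 were mostly small. The fold between groups ran from 1.04 to 2.04 over the 82 called genes, with a median of 1.15. A fold of at least 1.2 was reached by 31 genes and one of at least 1.5 by 7. Of the 7, 3 were higher (Myo7a, Trim30d, Mrpl48) and 4 lower (Me3, Iqgap1, Gvin1, Neu3) in the high mice. These are directions at the probe chosen for each gene, and Mrpl48 and Gvin1 also had called probes in the opposite direction.

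Myo7a followed the Rps3 probe most closely in the same direction. It ran from -0.332 through a median of -0.180 to 0.0280 in the low mice, from -0.251 through 0.00238 to 0.165 in the middle mice and from -0.0450 through 0.130 to 0.249 in the high mice. The groups overlapped only by a few mice: 4 low mice and 1 high mouse lay on the far side of the midpoint between the group means. The difference was 0.304 ± 0.00939 (SE), or 2.01-fold, with an adjusted p of 4.2e-63. Trim30d, of a family of interferon-inducible ubiquitin ligases, differed by as much. It ran from -0.341 through -0.162 to 0.0658 in the low mice and from -0.0299 through 0.139 to 0.262 in the high mice. Past the midpoint lay 3 low and 3 high mice. Its difference was 0.304 ± 0.0121 (SE), or 2.02-fold, with an adjusted p of 9.5e-51. Trim30d has near-identical relatives beside it, so the transcript its probe reads is uncertain. Trim30a, 1 such relative, differed by 0.0429 ± 0.0124 (SE), with an adjusted p of 0.0790, and was not called.

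Me3 went the other way by the same amount. It ran from -0.269 through 0.141 to 0.220 in the low mice, from -0.233 through 0.00506 to 0.208 in the middle mice and from -0.322 through -0.192 to 0.0399 in the high mice. Past the midpoint lay 2 low and 3 high mice, so the groups were nearly apart. Its difference was -0.310 ± 0.0118 (SE), or 2.04-fold, with an adjusted p of 9.8e-53. Iqgap1, a scaffold protein of the actin cytoskeleton, ran from -0.104 through 0.0602 to 0.208 in the low mice and from -0.326 through -0.171 to 0.0669 in the high mice. It differed by -0.232 ± 0.0122 (SE), or 1.71-fold, with 3 low and 5 high mice past the midpoint. Neu3, the plasma membrane sialidase that trims gangliosides, lies 2 measured genes after Rps3. It ran from -0.142 through 0.108 to 0.267 in the low mice and from -0.251 through -0.0891 to 0.0169 in the high mice, a difference of -0.198 ± 0.0104 (SE), or 1.58-fold. Past the midpoint lay 4 low mice and 1 high mouse.

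**Figure D4:**
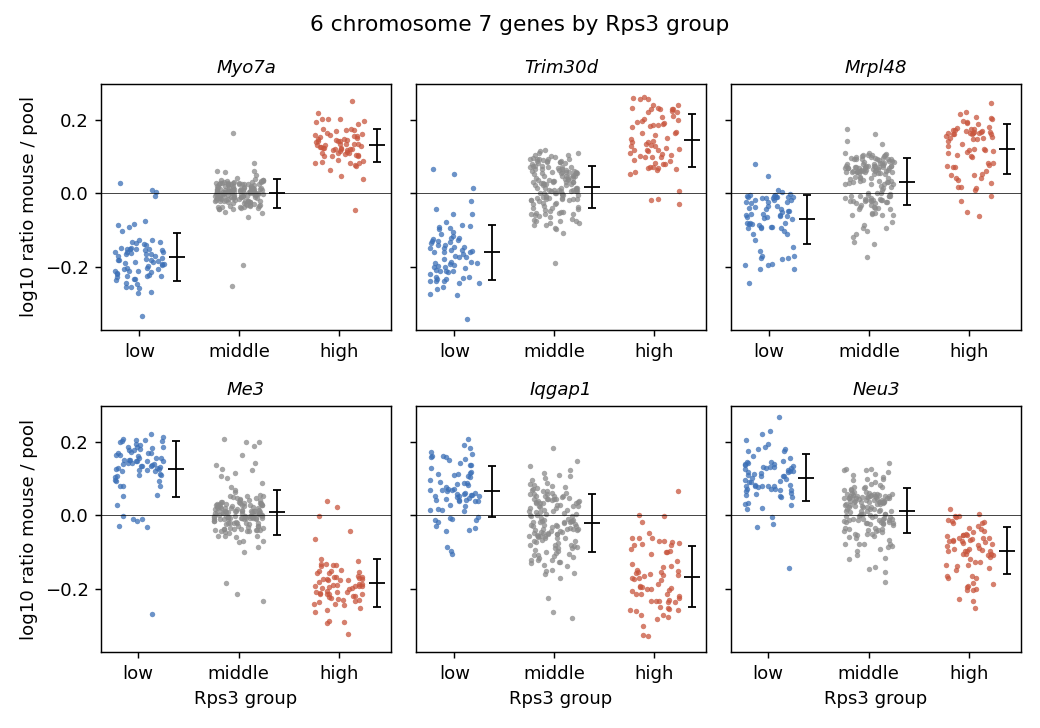
Log10 ratio to the pool (vertical axis) of 6 chromosome 7 genes in low (72), middle (150) and high (70) mice; points are mice, bars the mean ± SD. At the probe chosen for each gene, Myo7a, Trim30d and Mrpl48 are higher and Me3, Iqgap1 and Neu3 lower in the high mice. The middle mice lie between.

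Few mice departed from their group at several of these genes. Over the 142 low and high mice, 124 lay on their own group's side of the midpoint for all 4 of Me3, Myo7a, Neu3 and Trim30d. A further 15 mice crossed it for 1 of the 4 genes and 3 mice for 2 of them, and no mouse crossed it for 3 or for all 4. Me3 and Myo7a, both before Rps3, were crossed together in 1 mouse, as were Neu3 and Trim30d, both after it. These 4 genes were among those with the fewest mice past the midpoint, and the midpoints come from the same mice. A low count therefore follows in part from the choice of genes and tests nothing. At Gvin1, for instance, 12 low and 16 high mice lay past the midpoint.

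The other large differences on chromosome 7 were in genes of varied roles. Among enzymes and proteolysis, Psma1, a subunit of the proteasome core, differed by -0.167 (1.47-fold) and Ctsc, the lysosomal protease cathepsin C, by -0.161 (1.45-fold). Cyp2r1, a vitamin D 25-hydroxylase, was higher by 0.132 (1.36-fold), and Far1, a fatty acyl-CoA reductase of ether lipid synthesis, by 0.118 (1.31-fold). Coq7, a hydroxylase of coenzyme Q synthesis, was higher by 0.105 (1.27-fold) with an adjusted p of 8.9e-34. Copb1, a coat protein of Golgi vesicles, differed by -0.106 (1.28-fold). Fanci, of the Fanconi anaemia DNA repair pathway, differed by -0.161 (1.45-fold).

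Among receptors and signalling genes the directions were mixed as well. P2ry6, a receptor for UDP, differed by -0.126 (1.34-fold). Folr1, a folate receptor of the choroid plexus, was higher by 0.118 (1.31-fold), and Chrdl2, a secreted antagonist of bone morphogenetic proteins, by 0.117 (1.31-fold). Pycard, the adaptor ASC of inflammasomes, was higher by 0.113 (1.30-fold). Gvin1, a very large interferon-inducible GTPase, differed by -0.219 (1.66-fold) at the probe chosen for it. Olfml1, a secreted protein with an olfactomedin domain, differed by -0.172 (1.48-fold). Hbb-b2, an adult beta-globin, differed by -0.155 ± 0.0297 (SE), or 1.43-fold, with an adjusted p of 0.00012. Its groups overlapped widely, from -0.501 to 0.412 in the low and from -0.518 to 0.195 in the high mice. Hbb-b1, its near-identical neighbour, differed by -0.0952 with an adjusted p of 0.131, and Hba-a1, an alpha-globin of chromosome 11, by -0.00146 with an adjusted p of 0.998, and neither was called.

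Called genes lay around Rps3 and thinned out with distance, counted in measured genes along the chromosome by the gene order of GRCm38.p6. Within 50 genes of Rps3, 31 of 100 were called (31%), from 51 to 150 genes 34 of 200 (17%), and beyond 150 genes 16 of 602 (2.66%), against 9.07% for chromosome 7 as a whole. All 7 genes of at least 1.5-fold lay within 150 genes. Called genes lay on both sides, 47 before and 34 after, and Hbb-b2 had no place in the order. In steps of 50 genes before Rps3 the called genes numbered 16, 13, 6, 8 and 4, and the 6 farther steps held none. In steps after it they numbered 15, 5, 10, 0, 2, 0 and 1, and the last 2 genes held 1.

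Of the 10 nearest measured genes, 5 on each side, 6 were called. Before Rps3 these were Gdpd5, a membrane glycerophosphodiesterase (-0.0890), Serpinh1, a collagen chaperone (0.0729), Map6, a microtubule stabiliser (0.0629), and Dgat2, which makes triglycerides (0.0434). After it they were Neu3 (-0.198) and Chrdl2 (0.117). The 4 that were not called were Mogat2 (-0.00526), Slco2b1 (-0.00777), Xrra1 (-0.000667) and Rnf169 (0.00590). Called and uncalled genes thus lay mixed beside Rps3, and both signs occurred among the called ones.

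**Figure D5:**
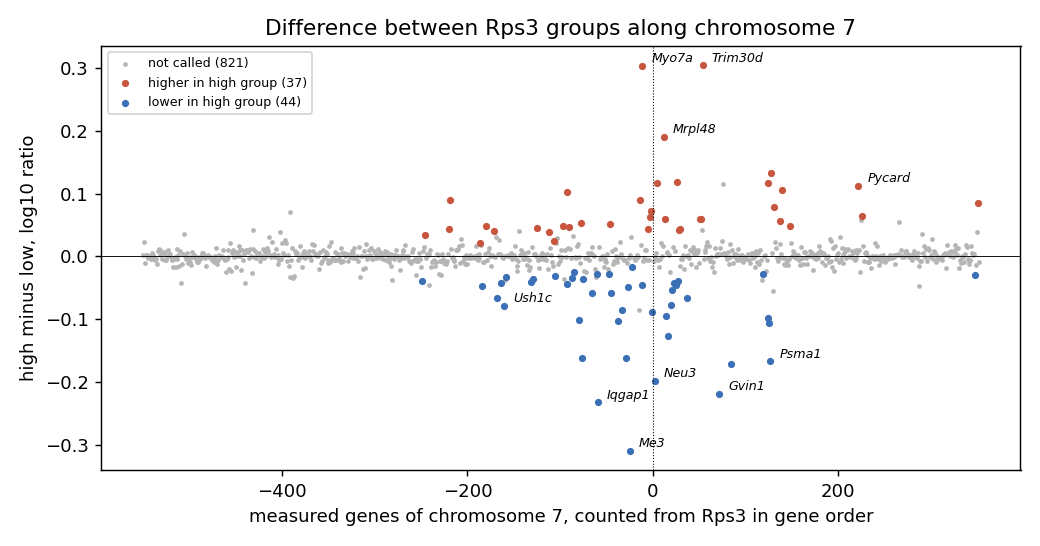
Difference high minus low (vertical axis, log10 ratio) of 902 chromosome 7 genes against their place in gene order, counted in measured genes from Rps3 at 0 (horizontal axis). Called genes (red higher, blue lower in the high mice) gather within about 150 genes of Rps3. Trim30d and Myo7a, both at 0.304, and Me3 at -0.310 are the outermost of those labelled on the 2 sides of 0.

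The middle mice served as the check for dose. Their mean lay between the low and high means for 28 of 29 called genes of other chromosomes, at a median position of 0.487 of the way from low to high. For the called chromosome 7 genes it lay between for 82 of 82, at a median of 0.495. Lying between was thus not particular to chromosome 7. On the linear ratio it lay between for 81 of 82, at a median of 0.492; the exception was Olfml1, with mean linear ratios of 1.26, 1.72 and 0.847 and a middle mouse at the limit of 2 on the log10 ratio. With the ratio turned, pool over mouse, it lay between for 80 of 82, at a median of 0.498, and the exceptions, named after their values were seen, were Slco3a1 and Uri1. For the 7 genes of at least 1.5-fold the median position was 0.459 on the log scale, from 0.285 to 0.581, and 0.478 on the linear scale, from 0.313 to 0.510. A test of the middle mean against the midpoint of low and high called 2 of 23548 probes (0.00849%), and 1 of the 82 called chromosome 7 genes (1.22%). That gene was Me3, whose middle mean lay 0.0367 ± 0.00764 (SE) above the midpoint, with an adjusted p of 0.0289. Its mean linear ratios were 1.35, 1.03 and 0.663 in low, middle and high mice, and those of Myo7a were 0.679 in low and 1.36 in high mice. The other was a probe with no gene name here, 10024415843, chosen after its values were seen. It had the largest difference among the unnamed probes, -0.613 or 4.11-fold, beyond the 2.04-fold of Me3, the largest of the called genes. Its middle mean lay 0.144 ± 0.0135 (SE) above the midpoint, with an adjusted p of 3.2e-18 by the same test. Its mean linear ratios were 1.53, 1.05 and 0.384 in low, middle and high mice.

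Genes whose level over all 292 mice went most nearly with the Rps3 probe were, in the same direction, Myo7a, Trim30d, Coq7, Mrpl48 and Folr1, and in the opposite direction Me3, Psma1, Iqgap1, Neu3 and Ctsc, all on chromosome 7. Inside the groups the likeness was weaker and not always of the same sign. Inside the low, middle and high mice, Pearson's r with the Rps3 probe was -0.05, 0.07 and -0.30 for Myo7a, -0.17, -0.01 and 0.03 for Me3 and 0.10, 0.02 and 0.12 for Neu3. For Trim30d it was -0.38, -0.04 and 0.08, for Mrpl48 -0.10, 0.11 and 0.19, and for Psma1 -0.25, -0.05 and -0.11. For Psma1 the direction in each group was that over all mice. The same held for Ctsc (-0.43, -0.32 and -0.25), Iqgap1 (-0.28, -0.36 and -0.27), Coq7 (0.19, 0.33 and 0.15) and Folr1 (0.15, 0.27 and 0.11). Neu3 also kept its direction in each group, but opposite to that over all mice. The values are descriptions over mice that share a pool.

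The effect was read in each set of mice on its own. All 82 called chromosome 7 genes and all 29 on other chromosomes had the same sign in sets A, B and C, a count helped by the sets having made the calls together; over all tested genes the share was 37.8% on chromosome 7 and 29.1% elsewhere. With calls from 1 set only, set A called 39 of 10835 genes (0.36%), set B 39 (0.36%) and set C 79 (0.729%). Of the 60 chromosome 7 genes called in set C alone, 60 had the same sign in sets A and B and 30 were called in both. Of the 19 genes of other chromosomes called in set C alone, 14 had the same sign in both other sets and 2 were called in both. A difference in effect between sets was called for 2 of 23548 probes (0.00849%), and for 1 of the 82 chromosome 7 genes (1.22%): Trim30d differed by 0.243 in set A, 0.247 in set B and 0.375 in set C.

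Several probes of 1 gene did not always go together. Of 5 called chromosome 7 genes with more than 1 probe, 2 had called probes in opposite directions. Mrpl48, a protein of the large mitochondrial ribosomal subunit, was higher by 0.190 ± 0.00922 (SE) at the probe with the largest spread, while the other 2 differed by -0.113 and -0.114. The first ran from -0.243 to 0.0806 in the low and from -0.0621 to 0.245 in the high mice. Gvin1 differed by -0.219 at 1 probe and by 0.0804 at another, and its 4 other probes were not called. Its direction and that of Mrpl48 therefore depend on the probe. Trim12a, of the same family as Trim30d, was higher at both of its probes (0.133 and 0.0595), and Clpb and Rab6a were called at 1 of 2.

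The gene lists around Rps3 showed few calls. Of the measured members of each list, limma called none of 12 proteins of the small ribosomal subunit (2 at an unadjusted p under 0.05), none of 28 of the large subunit (2), none of 22 ribosome assembly genes (0) and none of 29 translation factors (2). It called none of 15 NF-kappaB pathway genes (1), none of 23 base excision repair genes (1) and none of 17 p53 pathway genes (0). Among all 10835 genes 722 had an unadjusted p under 0.05 and 1.02% were called. The median difference was 0.00089 for the small subunit, -0.00343 for the large subunit and -2.9e-05 over all genes.

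Lists around the other chromosome 7 genes were called at single members. Me3 was the 1 called of 13 genes of malic enzymes and NADPH supply. Me1, the cytosolic malic enzyme of chromosome 9, differed by -0.00139 with an adjusted p of 0.997. Of 13 Usher and stereocilia genes, Myo7a was higher and Ush1c, its partner harmonin, lower (-0.0787 ± 0.00864 SE, 1.2-fold). Myo7a was also the 1 called of 21 myosin genes. Of 22 imprinted genes of chromosome 7, 1 was called, the lipid flippase Atp10a (0.0455), against 9.07% of all chromosome 7 genes. At an unadjusted p under 0.05 the malic enzyme, Usher, myosin and imprinted lists held 1, 3, 3 and 3 members. No member of 16 interferon induced genes was called (2 at an unadjusted p under 0.05). That list did not hold Trim30d or Gvin1, which were called.

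Brain and neighbouring cell types were measured by marker lists, and neuron (11 genes), astrocyte (11), oligodendrocyte (14), microglia (10), endothelial (12), anterior pituitary (8) and olfactory bulb (11) markers held no call by limma, with 0, 1, 0, 1, 1, 0 and 0 members at an unadjusted p under 0.05. The linear ratio to the pool, averaged over the markers of a list in each mouse, overlapped between low and high mice. It ran from 0.889 to 1.16 in low and from 0.897 to 1.12 in high mice for neuron markers, and from 0.765 to 1.16 and from 0.790 to 1.23 for microglia markers. For astrocyte markers it ran from 0.870 to 8.26 and from 0.876 to 4.10, for oligodendrocyte markers from 0.889 to 1.18 and from 0.851 to 1.14, and for endothelial markers from 0.857 to 1.34 and from 0.872 to 2.42. For anterior pituitary markers it ran from 0.441 to 4.30 and from 0.438 to 4.44, and for olfactory bulb markers from 0.865 to 1.23 and from 0.905 to 1.19. In the lists with the widest ranges the medians lay far below the largest values. In low and high mice they were 0.981 and 0.989 for astrocyte, 0.994 and 0.981 for endothelial and 0.555 and 0.549 for anterior pituitary markers. Folr1 was the 1 called of 8 choroid plexus markers and Hbb-b2 of 9 red cell genes, both on chromosome 7. At an unadjusted p under 0.05 these lists held 1 and 3 members. Ttr, the leading choroid plexus transcript, differed by -0.00115, adjusted p 0.998. None of 4 Y-linked genes was called, with 0 at an unadjusted p under 0.05. Of 19 immediate early genes and 12 glucocorticoid responsive genes none was called, with 0 and 3 at an unadjusted p under 0.05.

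Outside chromosome 7 the differences were smaller, with folds from 1.05 to 1.34 and a median of 1.1 over the 29 called genes, and 2 genes reached 1.2-fold. Rgp1, part of a Golgi exchange factor complex and a gene of chromosome 4, stood first. It ran from -0.168 through 0.0407 to 0.197 in the low mice and from -0.251 through -0.0832 to 0.0366 in the high mice. The difference was -0.128 ± 0.0101 (SE), or 1.34-fold, with an adjusted p of 2.5e-22, and -0.151, -0.150 and -0.102 in sets A, B and C. Inside the groups it went the other way, with an r to the Rps3 probe of 0.29, 0.34 and 0.41 in low, middle and high mice. Cap1, an actin-binding protein also of chromosome 4, differed by -0.119 ± 0.0331 (SE) with an adjusted p of 0.0483. Its other probe differed by -0.0107, or 1.02-fold, with an adjusted p of 0.832, and was not called. The first lost its call in 10 of 14 alternative settings and read -0.0237 in set C against -0.236 in set B.

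Chromosome 4 held 9 of the 29, out of 622 tested (1.45%), 2 higher and 7 lower. Besides Rgp1 and Cap1 these included Pla2g2e, a secreted phospholipase (-0.0595, adjusted p 2.9e-19), and Matn1, a cartilage matrix protein (-0.0421, adjusted p 0.000605). Nearer the threshold were Pafah2, a platelet activating factor hydrolase (-0.0525, adjusted p 0.0397), Stx12, an endosomal syntaxin (-0.0494, adjusted p 0.0209), and Frmpd1os (0.0497, adjusted p 0.0397). Genes were named here by the size of the difference, not by adjusted p. Elsewhere, Pgm3, an enzyme of UDP-GlcNAc synthesis on chromosome 9, was higher by 0.0620 ± 0.00640 (SE), or 1.15-fold, with an adjusted p of 1e-14, and by 0.0390, 0.0469 and 0.0840 in sets A, B and C. Cnmd of chromosome 14 (-0.0609) and Slc34a3, a sodium phosphate cotransporter of chromosome 2 (-0.0537), were lower. Cd163, a haemoglobin scavenger receptor of macrophages on chromosome 6 (0.0527), and Adm2, a peptide of the calcitonin family on chromosome 15 (0.0475), were higher. Ppp1cc, a catalytic subunit of protein phosphatase 1 on chromosome 5, was higher at 2 of its 3 probes (0.0406 and 0.0314). Chromosomes 1, 10, 11, 12, 19, X and Y held no call by limma.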

How the data were processed

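Whole-brain total RNA of 292 mice was hybridised against a pool on 2-colour arrays. The authors deposited 1 log ratio per probe and mouse, taken here as log10; scanner, normalization and log base were not given in the sources used. The base of 10, on which all folds rest, and the direction (Cy3 mouse over Cy5 pool) are likely but unstated. Turning the ratio would invert each level and swap the names of the groups, but keep each difference high minus low. Of 23574 probes, 25 with over 5% missing values were left out and 252 values were set to the probe mean; 690 values sit at the limits of ±2. Array medians ran from -0.0073 to 0.0133. Array number, with no depth, limits the precision. The platform annotation names 13665 probes with 1 gene and 48 with several, 9861 are unlisted, and 12662 probes matched RefSeq by gene ID and 4 by accession. A gene took its probe with the largest spread.

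Probes were fitted with limma 3.58.1 in R 4.3.3 on the low and high mice, with the mouse-number block, and Benjamini-Hochberg adjustment over all probes; tables were made with Python 3.11.15. The fit was tested on simulated data. Each mouse is 1 sample, and p-values measure the spread between mice. Members, lists and tests were chosen with earlier results of these data known. Named were Rps3, Myo7a and Me3. The 20 chromosome 7 and 15 other called genes with the largest differences of the same sign in all sets were named too. Up to 4 called genes per list and the 5 neighbours a side were named as well. So were the 5 genes with the highest and the 5 with the lowest r with the Rps3 probe over all mice. Hbb-b1, Hba-a1, Me1, Ttr, Trim30a, Trim12a, Clpb and Rab6a were added after their values were seen.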

Additional observations from a re-analysis of the deposited data

Results flagged for a closer look

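The size of the difference between low and high mice itself differed between the sets of mice for 2 probes, by an interaction term in limma over all probes. For Trim30d the interaction had an adjusted p of 0.00198, with differences of 0.243, 0.247 and 0.375 in sets A, B and C. For the probe 10024401849, which has no gene name here, it had an adjusted p of 3.3e-05, with differences of -0.315, -0.371 and -0.167. The direction was the same in all 3 sets for both.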

How the results depend on the processing

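The 213 probes, 82 chromosome 7 genes and 29 genes of other chromosomes were counted again under 14 alternatives, the gene counts also with the mean of a gene's probes. Requiring 1.1-fold left 133 probes and 13 genes of other chromosomes. Set A alone gave 63 probes, 36 chromosome 7 genes and 3 others, set B alone 69, 36 and 3, both from fewer mice, and set C alone 19 others. Adding 5 principal components gave 53 others and a regression on the Rps3 log ratio in all mice gave 44. The components came from all probes not placed on chromosome 7, those with no known chromosome among them. The cause was not tested. With the level of the Y-linked gene Eif2s3y as a further covariate, 210 probes, 82 chromosome 7 genes and 26 others were called. The remaining counts lay within 1.5 times the first. Chromosome 7 held more called genes than the other chromosomes together in each setting. Of 45 named genes 41 were called, and 21 kept the call in all 14 alternatives; over 630 values 67 lost the call, and 10 turned sign, each time of a neighbour of Rps3 that was not called: Mogat2 (0.00707 with stricter groups, 0.00555 by regression, 0.0429 with normal scores, 0.0108 in set A), Slco2b1 (0.0211 in set C) and Xrra1 (0.00242 with equal spread, 0.00491 with array weights, 0.00529 with stricter groups, 0.00762 in set A, 0.0148 in set B). The middle mice lay between for 82 of 83 chromosome 7 genes with arrays scaled to equal spread, 82 of 82 with the 3 sets as covariate and 75 of 75 with stricter groups. In the same settings they lay between for 30 of 30, 27 of 28 and 22 of 22 genes of other chromosomes. The linear ratio, also turned, and the reading of set C in sets A and B were chosen after seeing the data. No paired analysis was possible because all mice share 1 label group and no number occurs in 2 groups. The groups rest on 1 probe, and the other Rps3 probe did not step with it.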
